A study of Mus musculus with 12 samples.

Results

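The 9 genes described here encode enzymes of the tricarboxylic acid (TCA) cycle in the mitochondrial matrix. They were the rows of the deposited gene table whose symbol was Cs, Idh3a, Idh3b, Idh3g, Ogdh, Sucla2, Suclg1, Fh1 or Mdh2, and all 9 were found among 56748 genes. They lie on chromosomes 10 (Cs), 9 (Idh3a), 2 (Idh3b), X (Idh3g), 11 (Ogdh), 14 (Sucla2), 6 (Suclg1), 1 (Fh1) and 5 (Mdh2). Kidney RNA was sequenced in 12 libraries from male mice aged 8 to 12 weeks, in 4 groups of 3 libraries. In the cKO IR group, Krt20 was deleted conditionally in renal proximal tubular cells, both renal pedicles were clamped for 30 min, and kidneys were collected 24 h after blood flow was restored. In the cKO sham group, mice of that genotype had the same surgery without the clamps. The WT IR and WT sham groups were wild-type (WT) mice with clamped and unclamped pedicles. All groups were anesthetized with pentobarbital. The Cre driver behind the deletion and the deleted exons were not given in the labels. The labels also do not state that libraries came from separate animals, so every p-value measures the spread between libraries, part of which may be technical.

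The TCA cycle oxidizes the acetyl group of acetyl-CoA to carbon dioxide and passes the electrons to the respiratory chain as NADH and FADH2. Proximal tubules reabsorb most of the filtered salt and solutes, are rich in mitochondria and depend largely on fatty acid oxidation and the cycle for ATP. Citrate synthase (Cs) opens the cycle by joining acetyl-CoA to oxaloacetate. NAD-dependent isocitrate dehydrogenase, built from the catalytic subunit Idh3a with Idh3b and Idh3g, makes 2-oxoglutarate, and Ogdh is the E1 subunit of the complex that converts it to succinyl-CoA. Succinyl-CoA ligase pairs the common alpha subunit Suclg1 with the ADP-forming beta subunit Sucla2 or the GDP-forming beta subunit Suclg2. Fumarate hydratase (Fh1) and malate dehydrogenase (Mdh2) return the carbon to oxaloacetate.

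The deposited unit was FPKM, fragments scaled to gene length and to library size. Comparing levels between genes rests on the deposited gene lengths, which ran from 2701 bases (Idh3g) to 5779 bases (Cs) among the 9. The annotation behind these lengths is not given in the sources used here, so the order of genes by FPKM depends on it. The values resolved into 13187531 to 15962303 whole reads per library, and the 9 genes each held at least 1594 of them in every library. Krt20, the deleted gene, was at 28.2 to 47.0 FPKM in cKO IR libraries and 59.9 to 84.0 FPKM in WT IR libraries. In sham kidneys it was at 0 to 0.0343 FPKM in cKO and 0 to 0.157 FPKM in WT. The Krt20 difference between cKO IR and WT IR was −0.91 on the log2 scale, with a limma adjusted p of 0.132. The RNA extraction text mentions the retina although the tissue is labelled kidney, and all 10 proximal tubule markers had reads in every library. Library 2 of WT IR stood apart from its group. Its score on the first principal component, which held 67.4% of the variance, was 9.84, against 34.9 and 42.1 in the other WT IR libraries, 45.5 to 49.1 in cKO IR and −39.2 to −36.7 in the sham libraries.

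Promoter windows are shown for Idh3b, Idh3g and Sucla2, which fell in both genotypes after IR and hold 1 of the motifs searched in their single window, and for Cs, which did not fall and holds none. ETS factors, nuclear respiratory factor 1 (NRF1) and estrogen-related receptors (ERR) are known regulators of mitochondrial genes. RefSeq windows of GRCm38.p6, 250 bases before to 50 after a transcription start, were found for 8 of the 9 genes. Both strands were searched for the ETS motif CCGGAAG, the NRF1 motif (GCGCA and GCGC with any 1 base between them) and the ERR motif AAGGTCA, and no motif match overlapped another. Idh3b (chr2:130284402-130284701, minus strand), Idh3g (chrX:73786848-73787147, minus strand) and Sucla2 (chr14:73552536-73552835, plus strand) are printed with the motif match in capitals. Cs (chr10:128337477-128337776, plus strand) is printed beside them.
Idh3b: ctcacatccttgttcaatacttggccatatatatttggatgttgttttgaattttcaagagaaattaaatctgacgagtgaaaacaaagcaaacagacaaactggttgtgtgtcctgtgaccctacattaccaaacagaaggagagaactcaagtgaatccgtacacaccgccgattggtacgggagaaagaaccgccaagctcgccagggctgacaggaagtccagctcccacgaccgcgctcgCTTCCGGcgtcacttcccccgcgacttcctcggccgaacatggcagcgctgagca
Idh3g: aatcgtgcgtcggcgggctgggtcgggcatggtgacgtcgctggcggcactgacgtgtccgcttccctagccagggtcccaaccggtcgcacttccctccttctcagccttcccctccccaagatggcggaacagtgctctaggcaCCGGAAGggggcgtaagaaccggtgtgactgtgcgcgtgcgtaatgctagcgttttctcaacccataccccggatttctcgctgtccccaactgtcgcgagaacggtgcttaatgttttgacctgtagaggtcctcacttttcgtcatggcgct
Sucla2: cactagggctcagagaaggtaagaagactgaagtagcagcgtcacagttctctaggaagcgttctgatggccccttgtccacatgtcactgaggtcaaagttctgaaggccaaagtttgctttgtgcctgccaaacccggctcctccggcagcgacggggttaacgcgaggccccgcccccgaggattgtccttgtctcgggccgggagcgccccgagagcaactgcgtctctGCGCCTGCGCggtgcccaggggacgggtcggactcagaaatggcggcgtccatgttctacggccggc
Cs: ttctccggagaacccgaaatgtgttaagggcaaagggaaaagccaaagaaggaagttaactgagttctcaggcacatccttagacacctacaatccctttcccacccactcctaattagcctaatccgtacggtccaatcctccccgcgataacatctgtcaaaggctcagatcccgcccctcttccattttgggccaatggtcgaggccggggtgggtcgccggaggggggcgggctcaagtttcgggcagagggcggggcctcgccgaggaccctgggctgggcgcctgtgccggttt
Idh3b and Idh3g held the ETS motif, in reverse orientation at positions −5 to 1 in Idh3b and at positions −104 to −98 from the start in Idh3g, and 8.86% of 32851 windows did. Sucla2 held the NRF1 motif at positions −17 to −8, as did 4.60% of all windows. Ogdh also fell in both genotypes and is not printed. The ERR motif was present in 1 of its 6 windows and in 4.72% of all windows, and its other 5 windows held none of these motifs. The windows of Fh1, Mdh2 and Suclg1 held none either, and Suclg1 fell in cKO. A match describes letters in the window only. The printed windows were picked by fall and motif together, so they cannot show a link between motif and fall, which was not tested.

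All 9 genes were well expressed in sham kidneys. Ogdh was the highest, at 145.9 ± 6.53 FPKM in cKO sham and 143 ± 7.78 FPKM in WT sham (SD, n = 3 each). Mdh2 followed at 92.0 ± 2.10 FPKM in cKO sham and 98.7 ± 2.92 FPKM in WT sham, and its range touched that of no neighbour in the order. Idh3a was the lowest, at 31.4 ± 0.521 FPKM in cKO sham and 30.1 ± 0.612 FPKM in WT sham. Within the sham groups, the ranges of Idh3b and Idh3g overlapped, as did those of Suclg1 and Fh1 and those of Sucla2 and Cs. After IR this order was partly lost. In WT IR kidneys neighbours overlapped from Idh3b through Idh3g, Fh1 and Suclg1 to Cs, as did Ogdh and Mdh2 at the top and Sucla2 and Idh3a at the bottom, while Cs and Sucla2 were apart. In cKO IR kidneys Mdh2 (91.4 ± 6.40 FPKM) and Ogdh (90.5 ± 7.04 FPKM) overlapped at the top, and Idh3a (32.2 ± 1.18 FPKM) and Sucla2 (30.7 ± 2.59 FPKM) at the bottom.

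**Figure D1:**
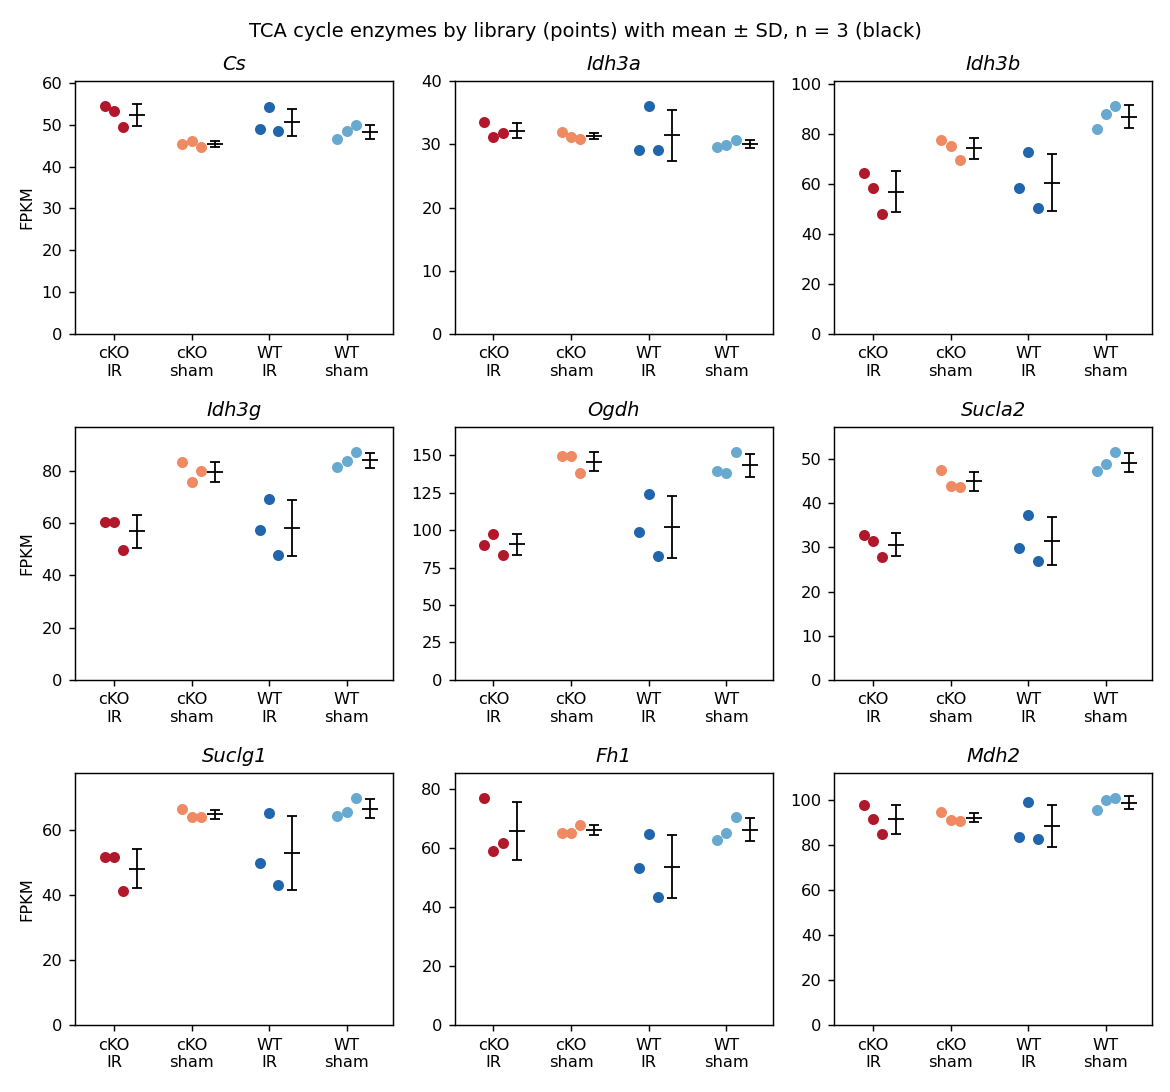
FPKM of the 9 enzymes in each library (points), with the group mean and SD of 3 libraries in black, from left to right cKO IR, cKO sham, WT IR and WT sham. Ogdh, Sucla2, Idh3g and Idh3b sit lower in both IR groups than in the sham group of the same genotype, without overlap, while Cs and Idh3a do not.

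After IR, Idh3b, Idh3g, Ogdh and Sucla2, which act between isocitrate and succinate, fell in both genotypes, and Cs at the entry of the cycle fell in neither. In cKO kidneys, 5 of the 9 genes fell after IR (Idh3b, Idh3g, Ogdh, Sucla2 and Suclg1), Cs rose, and 3 did not pass the test. In WT kidneys, 4 of the 9 fell (Idh3b, Idh3g, Ogdh and Sucla2), none rose, and 5 did not pass. The test was limma on log2(FPKM + 1) over the 12868 genes that averaged 1 FPKM or more, with Benjamini-Hochberg adjustment and a threshold of 0.05. By the same rule 50.8% of all tested genes were called in cKO IR against cKO sham, 27.8% higher and 23.1% lower. In WT IR against WT sham 42.2% were called, 22.6% higher and 19.5% lower. The share of the 9 genes called lower was above the background in both genotypes, and the share called in either direction was above it in cKO and close to it in WT. The 9 genes were chosen with earlier results of these data known, so this comparison is a description and not an independent test. The median log2 difference of the 9 genes was −0.39 in cKO and −0.35 in WT, against 0.02 and 0.01 over all tested genes. IR and sham libraries did not overlap for 6 of the 9 genes in cKO, 5 of them lower and 1 higher, and for 4 of the 9 in WT, all lower. Of all tested genes 60.4% were without overlap in cKO (32.6% higher, 27.8% lower) and 52.9% in WT (28.0% higher, 24.9% lower). Every gene of the 9 passed the expression filter.

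The count of calls depended on single libraries. Without WT IR library 2, 7 of the 9 genes fell in WT kidneys, with Suclg1 (−0.51), Fh1 (−0.46) and Mdh2 (−0.25) added. Without WT IR library 3 the count stayed at 4, and the WT differences were −0.22 for Suclg1 (adjusted p = 0.221), −0.17 for Fh1 (adjusted p = 0.324) and −0.12 for Mdh2 (adjusted p = 0.365). Without any 1 of the 3 cKO sham libraries, 3 genes were called in cKO kidneys, namely Idh3g, Ogdh and Sucla2, each lower. The cKO call of Cs was also lost without cKO IR library 1 or 2, that of Idh3b without cKO IR library 2 or 3, and that of Suclg1 without cKO IR library 3. Ogdh, Idh3g and Sucla2 passed in both genotypes under each of the 15 alternative settings run. In bulk tissue, fewer cells of a type and less RNA per cell cannot be told apart, which applies to every difference between IR and sham given here.

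**Figure D2:**
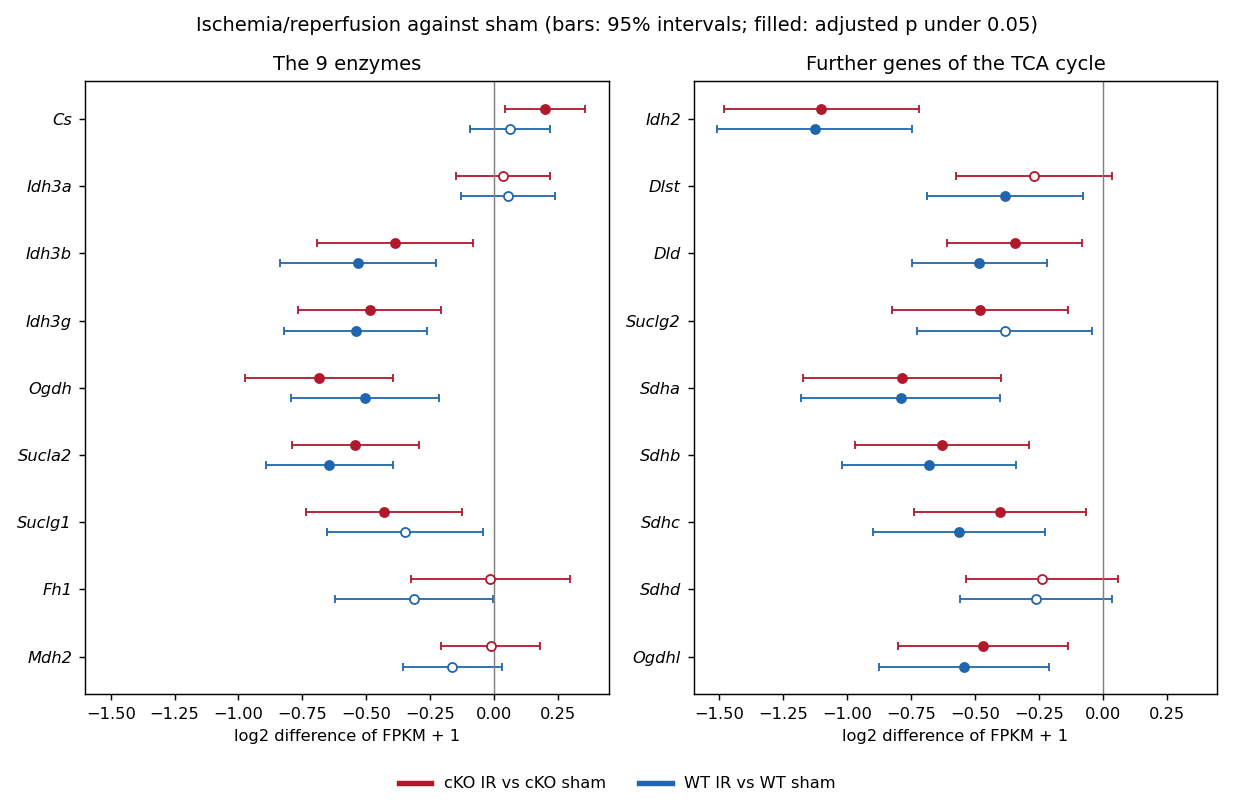
Log2 differences of FPKM + 1 between IR and sham (points) with 95% intervals (bars) for the 9 enzymes on the left and 9 further genes of the cycle on the right, with cKO in red above WT in blue; filled points have a limma adjusted p under 0.05. Sucla2, Idh3g, Idh3b and Ogdh are filled in both genotypes, Cs and Suclg1 in cKO and not in WT, and Idh3a, Fh1 and Mdh2 in neither; Idh2 lies farthest to the left at −1.10 in cKO and −1.13 in WT.

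At the entry step, citrate synthase did not fall in either genotype. Cs was at 54.4, 53.2 and 49.4 FPKM in cKO IR, against 45.4, 46.2 and 44.6 FPKM in cKO sham, so every cKO IR library was above every cKO sham library. It was at 49.0, 54.3 and 48.4 FPKM in WT IR, against 46.6, 48.6 and 49.8 FPKM in WT sham, and these groups overlapped. Cs rose in cKO by 0.20 on the log2 scale (SE 0.07, limma adjusted p = 0.0353). This call held in 7 of 15 alternative settings, where the adjusted p ran from 0.00248 to 0.0997. In WT the difference was 0.06 (SE 0.07, adjusted p = 0.507). With plain library totals as the scale it was 0.21 (adjusted p = 0.00914), where the median of all genes itself moved to 0.13.

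The subunits of isocitrate dehydrogenase did not move together. The catalytic subunit Idh3a was at 33.5, 31.2 and 31.8 FPKM in cKO IR, against 31.9, 31.2 and 30.9 FPKM in cKO sham. It was at 29.1, 36.0 and 29.1 FPKM in WT IR, against 29.6, 29.8 and 30.8 FPKM in WT sham, and the groups overlapped in both genotypes. The log2 difference was 0.03 in cKO (95% interval −0.15 to 0.22, adjusted p = 0.751) and 0.05 in WT (−0.13 to 0.24, adjusted p = 0.627). With plain library totals the WT difference was 0.20 and passed the test (adjusted p = 0.0269).

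Idh3b, a subunit of the same enzyme, was at 64.1, 58.3 and 48.0 FPKM in cKO IR, against 77.5, 75.3 and 69.6 FPKM in cKO sham. It was at 58.2, 72.8 and 50.3 FPKM in WT IR, against 81.7, 88.0 and 91.0 FPKM in WT sham. In both genotypes all IR libraries were below all sham libraries. Idh3b fell by 0.39 in cKO (SE 0.14, adjusted p = 0.0369), a call that held in 9 of 15 alternative settings. It fell by 0.53 in WT (SE 0.14, adjusted p = 0.0105), a call kept in all 15. Its gene model overlaps that of Nop56 on the other strand by 5 bases. Idh3g, the gamma subunit, was at 60.4, 60.5 and 49.7 FPKM in cKO IR, against 83.5, 75.8 and 79.9 FPKM in cKO sham. It was at 57.6, 69.3 and 47.7 FPKM in WT IR, against 81.5, 83.9 and 87.3 FPKM in WT sham. Again no IR library reached the sham range. Idh3g fell by 0.49 in cKO (SE 0.13, adjusted p = 0.00849) and by 0.54 in WT (SE 0.13, adjusted p = 0.0062). Idh3b and Idh3g are the pair printed with the ETS motif in capitals, and a link between that motif and the fall was not tested.

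Ogdh, which feeds succinyl-CoA formation, was at 90.3, 97.6 and 83.5 FPKM in cKO IR, against 149.8, 149.5 and 138 FPKM in cKO sham. It was at 98.9, 124 and 82.8 FPKM in WT IR, against 139.5, 138 and 152 FPKM in WT sham. WT IR library 2 was the nearest to the sham range, and no group overlapped with its sham group. Ogdh fell by 0.69 in cKO (SE 0.13, adjusted p = 0.00142, fold 0.622 on the FPKM + 1 scale). In WT it fell by 0.50 (SE 0.13, adjusted p = 0.0105, fold 0.705). Of the 9 genes it had the largest drop in cKO, and Sucla2 the largest in WT.

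Both subunits of the ADP-forming succinyl-CoA ligase averaged lower after IR in both genotypes, the beta subunit by more. Sucla2 was at 32.8, 31.4 and 27.8 FPKM in cKO IR, against 47.6, 43.9 and 43.6 FPKM in cKO sham. It was at 29.9, 37.5 and 26.9 FPKM in WT IR, against 47.3, 48.9 and 51.7 FPKM in WT sham, so IR and sham were apart in both genotypes. Sucla2 fell by 0.54 in cKO (SE 0.11, adjusted p = 0.00237) and by 0.64 in WT (SE 0.11, adjusted p = 0.00133). The alpha subunit Suclg1 was at 51.6, 51.7 and 41.2 FPKM in cKO IR, against 66.4, 64.1 and 63.9 FPKM in cKO sham. It was at 50.0, 65.4 and 43.2 FPKM in WT IR, against 64.5, 65.6 and 69.9 FPKM in WT sham. The cKO groups were apart, whereas WT IR library 2 lay inside the WT sham range. Suclg1 fell by 0.43 in cKO (SE 0.14, adjusted p = 0.0236), a call held in 11 of 15 alternative settings. In WT the difference was −0.35 (SE 0.14, adjusted p = 0.064).

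The last steps, fumarate hydratase and malate dehydrogenase, passed the test in neither genotype. Fh1 was at 77.1, 59.0 and 61.7 FPKM in cKO IR, against 65.2, 65.1 and 68.1 FPKM in cKO sham, with 1 cKO IR library above the sham range and the other 2 below it. It was at 53.2, 64.9 and 43.4 FPKM in WT IR, against 63.0, 65.4 and 70.6 FPKM in WT sham, and only library 2 reached the sham range. The log2 difference was −0.01 in cKO (SE 0.14, adjusted p = 0.943) and −0.31 in WT (SE 0.14, adjusted p = 0.096). The Fh1 model shares 5255 bases with Kmo on the other strand. Kmo, which makes 3-hydroxykynurenine, averaged 9.21 FPKM in cKO IR, 28.2 in cKO sham, 12.1 in WT IR and 34.7 in WT sham. Whether counting used strand is not given in the sources used here, so reads of the shared bases cannot be told apart and the Fh1 values are uncertain. Mdh2 was at 97.8, 91.4 and 85.0 FPKM in cKO IR, against 94.5, 90.9 and 90.7 FPKM in cKO sham. It was at 83.6, 99.0 and 82.5 FPKM in WT IR, against 95.4, 99.9 and 101 FPKM in WT sham. The Mdh2 groups overlapped in both genotypes, with log2 differences of −0.01 in cKO (95% interval −0.21 to 0.18, adjusted p = 0.918) and −0.16 in WT (−0.36 to 0.03, adjusted p = 0.159).

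Ratios of subunits within a library do not depend on how libraries were scaled, so they test the unequal movement directly. The Idh3b to Idh3a ratio was 1.92, 1.87 and 1.51 in cKO IR, against 2.43, 2.41 and 2.25 in cKO sham. It was 2.0, 2.02 and 1.73 in WT IR, against 2.76, 2.95 and 2.96 in WT sham. All IR libraries lay below all sham libraries. The difference in mean log2 ratio between IR and sham was −0.51 over both genotypes, −0.43 in cKO and −0.60 in WT. The exact two-sided permutation test of surgery within genotype gave p = 0.005, the smallest that its 400 splits allow, and 0.0133 after adjustment over 8 ratio tests.

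The Idh3g to Idh3a ratio, which shares its denominator, averaged 1.77 ± 0.190 in cKO IR and 2.54 ± 0.0999 in cKO sham (SD, n = 3 each). It averaged 1.85 ± 0.180 in WT IR and 2.80 ± 0.0445 in WT sham. The difference was −0.57 on the log2 scale (exact permutation p = 0.005, adjusted 0.0133), with the IR libraries below the sham libraries in both genotypes. The Sucla2 to Suclg1 ratio averaged 0.639 ± 0.0339 in cKO IR and 0.694 ± 0.0187 in cKO sham. It averaged 0.598 ± 0.0248 in WT IR and 0.740 ± 0.00570 in WT sham. The log2 difference was −0.21 over both genotypes (exact permutation p = 0.005, adjusted 0.0133), −0.12 in cKO and −0.31 in WT. Within a library the beta subunit was thus lower relative to the alpha subunit after IR. In cKO the ranges nearly met, at 0.675 for the highest IR library and 0.682 for the lowest sham library. Between the 2 beta subunits, Sucla2 to Suclg2 averaged 0.450 in cKO IR, 0.472 in cKO sham, 0.432 in WT IR and 0.522 in WT sham. That difference of −0.17 did not pass after adjustment (exact permutation p = 0.035, adjusted 0.056).

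**Figure D3:**
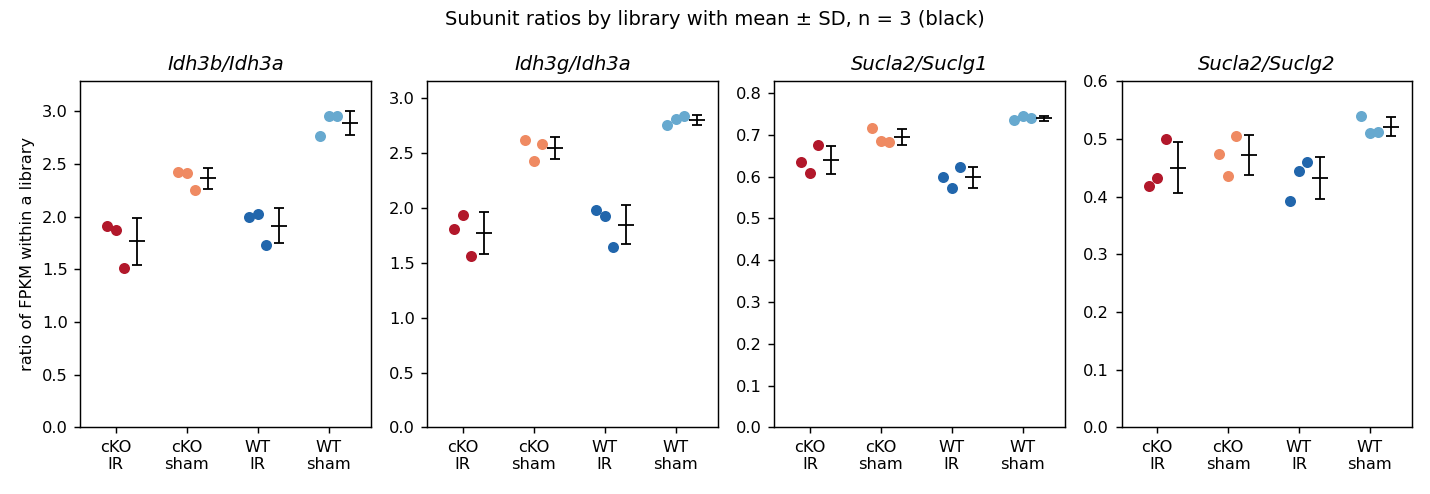
Ratio of FPKM between subunits of 1 enzyme in each library (points), with the mean and SD of 3 libraries in black, in the order cKO IR, cKO sham, WT IR and WT sham. Idh3b to Idh3a and Idh3g to Idh3a are lower in every IR library than in any sham library; Sucla2 to Suclg2 overlaps between cKO IR and cKO sham.

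The genotypes did not differ beyond the test's threshold in any of the 9 genes. None passed the limma test in cKO sham against WT sham, where 1.10% of all tested genes did (0.847% higher, 0.256% lower). None passed in cKO IR against WT IR, where 0% of tested genes did. At an unadjusted p under 0.05 none of the 9 was called in either comparison, while 1472 of all tested genes were in cKO sham against WT sham and 1926 in cKO IR against WT IR, and limma-voom on recovered reads called 1 gene of the whole table there and none of the 9. The median log2 difference of the 9 was −0.08 in sham and −0.02 after IR, against 0 and 0.03 over all tested genes. The 95% intervals bound what the data allow. They ran from −0.53 at the lowest (Idh3b, cKO sham against WT sham) to 0.61 at the highest (Fh1, cKO IR against WT IR).

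In sham kidneys Cs, Idh3b and Mdh2 were lower and Idh3a higher in every cKO library than in any WT library, though none passed the limma test. These were 4 of the 9 genes, and 25.1% of all tested genes were without overlap in that comparison (13.0% higher, 12.0% lower). For Idh3b the libraries were at 77.5, 75.3 and 69.6 FPKM in cKO sham and 81.7, 88.0 and 91.0 FPKM in WT sham, a log2 difference of −0.23 (adjusted p = 0.632). The Idh3b to Idh3a ratio differed by −0.29 between cKO sham and WT sham and by −0.12 between cKO IR and WT IR. Over both, the exact permutation test of genotype within surgery gave p = 0.025 and an adjusted p of 0.05, which is not under the threshold. The other ratios did not pass between genotypes, with adjusted p of 0.207 for Idh3g to Idh3a, 0.965 for Sucla2 to Suclg1 and 0.611 for Sucla2 to Suclg2. After IR the ranges of cKO and WT overlapped for all 9 genes, where 16.0% of all tested genes were without overlap (10.2% higher, 5.84% lower). Fh1 had the largest difference there, at 65.9 ± 9.78 FPKM in cKO IR and 53.8 ± 10.8 FPKM in WT IR (SD, n = 3 each), a log2 difference of 0.30 (95% interval −0.01 to 0.61, limma adjusted p = 0.351). It rested on single libraries, being 0.44 without WT IR library 2 (adjusted p = 0.298), 0.15 without WT IR library 3 (adjusted p = 0.538) and 0.18 without cKO IR library 1 (adjusted p = 0.635).

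Whether injury acted differently in the genotypes was tested as an interaction. None of the 9 passed, where 0.878% of all tested genes did (0.295% higher, 0.583% lower). The estimates ran from −0.18 for Ogdh (95% interval −0.59 to 0.23, adjusted p = 0.706) to 0.30 for Fh1 (−0.14 to 0.74, adjusted p = 0.532). Without WT IR library 2 the estimate was −0.03 for Ogdh (adjusted p = 0.937) and 0.44 for Fh1 (adjusted p = 0.237). Without WT IR library 3 it was −0.32 for Ogdh (adjusted p = 0.338) and 0.16 for Fh1 (adjusted p = 0.687), and without cKO IR library 1 that of Fh1 was 0.18 (adjusted p = 0.744). The rise of Cs in cKO kidneys was therefore not shown to differ from its change in WT kidneys, with an interaction of 0.14 and an adjusted p of 0.572.

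**Figure D4:**
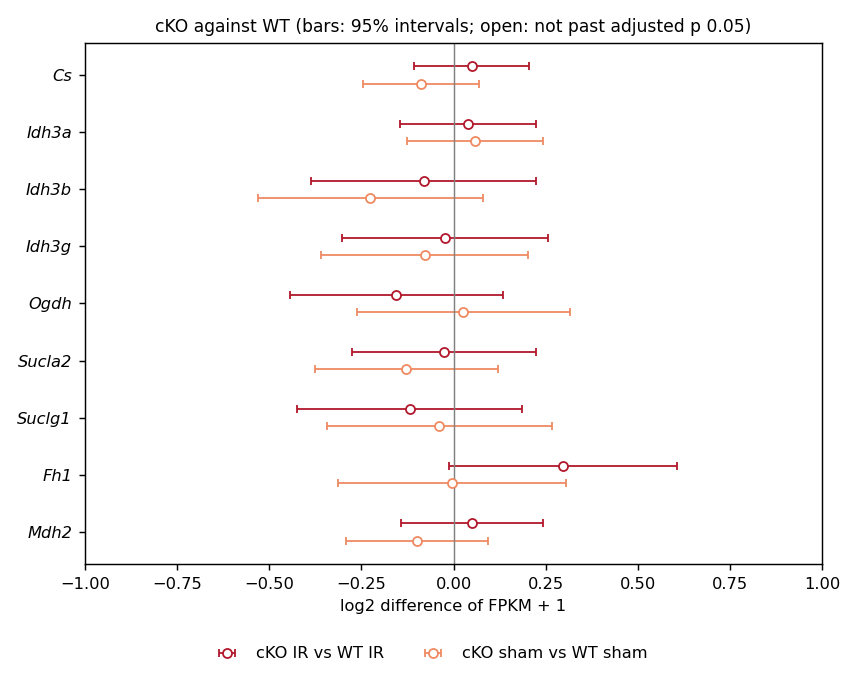
Log2 differences of FPKM + 1 between cKO and WT for the 9 enzymes (points) with 95% intervals (bars), after IR in dark red above sham in orange. All points are open, since none has a limma adjusted p under 0.05; Fh1 after IR lies farthest from 0, at 0.30.

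Within WT the 9 genes shared their highest and lowest libraries. WT IR library 2 had the highest value of its group for all 9 genes and WT IR library 3 the lowest for all 9, and WT sham library 3 was the highest of WT sham for all 9. The 9 genes together took 0.234%, 0.230% and 0.215% of reads in cKO IR, against 0.275%, 0.269% and 0.260% in cKO sham. They took 0.230%, 0.267% and 0.217% in WT IR, against 0.266%, 0.270% and 0.275% in WT sham, so library 2 fell inside the WT sham range. The summed FPKM of 10 proximal tubule markers moved in the same order within WT IR, at 1278, 2278 and 963, and was 701 to 1070 in cKO IR. It was 3713 to 4328 in cKO sham and 4065 to 4655 in WT sham. Of these markers 9 fell in cKO (median −2.01) and 8 in WT (median −1.08), with none at 0 in any library. Markers of the thick ascending limb and distal tubule (6 of 6 fell in cKO, 5 in WT) summed to 452 to 720 in cKO IR, 1310 to 1913 in cKO sham, 602 to 1048 in WT IR and 1452 to 1584 in WT sham. Neutrophil markers (4 of 4 rose in cKO, 3 in WT) summed to 17.3 to 25.4 in cKO IR, 2.57 to 3.06 in cKO sham, 10.4 to 49.9 in WT IR and 1.74 to 2.45 in WT sham. Markers of injured tubule, among them Havcr1 and Krt20, rose in 4 of 4 cases in each genotype. Of 4 collecting duct markers 2 fell in each genotype, of 4 endothelial markers 1 fell in each, and of 4 macrophage markers 1 rose and 1 fell in each. Over all tested genes 23.1% fell and 27.8% rose in cKO, and 19.5% fell and 22.6% rose in WT. The endothelial and macrophage counts were near these shares. Red blood cell markers fell in 4 of 4 cases in WT and in 0 in cKO. Skeletal muscle markers summed to at most 0.679 FPKM in any library, and brown fat and adrenal markers, of which up to 3 of 4 were at 0 in a library, to at most 1.85 FPKM. The size by which the authors had scaled a library was 0.933 (WT sham 3) to 0.990 times its recovered reads in sham libraries. In IR libraries it was 1.001 to 1.126 (WT IR 3) times, so every IR library was above every sham library. The deposited scale thus lowered IR values against sham values relative to plain library totals. With plain totals the median log2 difference of all tested genes was 0.07 in cKO and 0.13 in WT, against 0.02 and 0.01 as reported. The part of cell composition and of scaling in the differences of the 9 genes was not tested.

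Most other enzymes of the cycle fell as well. Of 10 further cycle genes 8 fell in cKO and 8 in WT, with none higher and a median log2 difference of −0.47 in cKO and −0.53 in WT. By the same test 23.1% of all tested genes fell in cKO and 19.5% in WT. Idh2, the NADP-dependent mitochondrial isocitrate dehydrogenase, fell to 77.9 ± 9.84 FPKM in cKO IR, against 167 ± 6.80 FPKM in cKO sham (log2 −1.10, adjusted p = 0.000421). It fell to 86.7 ± 24.8 FPKM in WT IR, against 186 ± 5.82 FPKM in WT sham (log2 −1.13, adjusted p = 0.000635). Sdha, the flavoprotein subunit of succinate dehydrogenase, fell by 0.79 in both genotypes (adjusted p = 0.00365 in cKO and 0.00477 in WT). Sdhb, Sdhc, Dld and Ogdhl also fell in both, and Ogdhl averaged at most 1.96 FPKM in any group. Sdhd, a membrane anchor of succinate dehydrogenase, passed in neither genotype, Suclg2 fell in cKO (adjusted p = 0.0241; 0.0692 in WT) and Dlst fell in WT (adjusted p = 0.0465; 0.131 in cKO). These counts also rested on single libraries. In WT all 10 fell without WT IR library 2, and 5 did without WT IR library 3 or without WT sham library 3. In cKO 4 fell without cKO sham library 1 or cKO IR library 3, and 5 without cKO sham library 2.

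Mitochondrial carriers fell as well, 6 of 8 in each genotype, with a median of −0.79 in cKO and −0.57 in WT. The share of all tested genes called lower was 23.1% in cKO and 19.5% in WT. The pyruvate carrier subunit Mpc2 fell to 12.7 ± 1.56 FPKM in cKO IR, against 25.9 ± 2.07 FPKM in cKO sham (log2 −0.98, adjusted p = 0.000808). It fell to 14.8 ± 4.37 FPKM in WT IR, against 26.6 ± 2.23 FPKM in WT sham (log2 −0.84, adjusted p = 0.00293). Its partner Mpc1 fell by 0.86 in cKO and 0.65 in WT. The dicarboxylate carrier Slc25a10, the oxoglutarate carrier Slc25a11 and the aspartate-glutamate carriers Slc25a12 and Slc25a13 fell in both genotypes. In WT, 3 carriers were called without WT IR library 1, WT IR library 3 or WT sham library 3.

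Genes that feed carbon into the cycle or draw it out went both ways in cKO. Of the 8 tested, 3 fell in each genotype. Among all tested genes 23.1% fell and 27.8% rose in cKO, and 19.5% fell and 22.6% rose in WT. Glutamate dehydrogenase (Glud1, 0.61) and the mitochondrial aspartate aminotransferase Got2 (0.34) rose in cKO, where their adjusted p were 0.0101 and 0.0117. In WT they gave 0.37 and 0.14 with adjusted p of 0.0935 and 0.256. Pyruvate carboxylase (Pcx), which makes oxaloacetate from pyruvate, fell by 1.47 in cKO and 1.21 in WT. The propionyl-CoA carboxylase subunits fell too, Pcca by 1.13 in both genotypes and Pccb by 0.69 in cKO and 0.72 in WT. Methylmalonyl-CoA mutase was not found under the symbol listed and is not analysed here. Among 5 cytosolic isozymes, Mdh1, Me1 and Aco1 fell in both genotypes and Acly rose in cKO (0.50, adjusted p = 0.0035). Mdh1 fell by 1.30 in cKO and 0.97 in WT, whereas its mitochondrial counterpart Mdh2 passed in neither.

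No gene of the mitochondrial outer membrane and protein import list was called lower. Of 11, 3 rose in cKO and 4 in WT, with a median of 0.13 in cKO and 0.04 in WT. By the same test 27.8% of all tested genes rose in cKO and 22.6% in WT, so the cKO count was near the share of all genes. Tomm40, the import pore, rose by 0.58 in cKO and 0.55 in WT (adjusted p = 0.00115 and 0.00228), and the channel Vdac3 rose by 0.36 and 0.32. Without WT IR library 2, 3 of the list rose and 2 fell in WT, and without WT sham library 1 the count was 1 higher. It was 2 higher without WT IR library 3, and in cKO it was 5 higher without cKO IR library 3 and 6 higher with plain library totals. Of 6 regulators of mitochondrial biogenesis 4 fell in each genotype, the coactivators Ppargc1a and Ppargc1b, the nuclear receptor Esrra and the mitochondrial DNA factor Tfam. Of all tested genes 23.1% fell in cKO and 19.5% in WT. Ppargc1a fell by 1.18 in cKO (adjusted p = 9e-05) and by 0.66 in WT (adjusted p = 0.00406). In WT the count was 2 without WT IR library 3. Nrf1 and the ETS factor subunit Gabpa passed in neither genotype. Of 4 mitochondrial chaperone and protease related genes, the deacetylase Sirt3 fell by 1.31 in cKO and 1.12 in WT. Clpx, the unfoldase of the matrix protease ClpXP, fell by 1.03 in WT (adjusted p = 0.000451) and was −0.24 in cKO (adjusted p = 0.2). In cKO sham Clpx was at 33.7 ± 3.39 FPKM, against 57.5 ± 7.66 FPKM in WT sham (log2 −0.75, adjusted p = 0.0398), and its interaction was 0.79 with an adjusted p of 0.107.

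**Figure D5:**
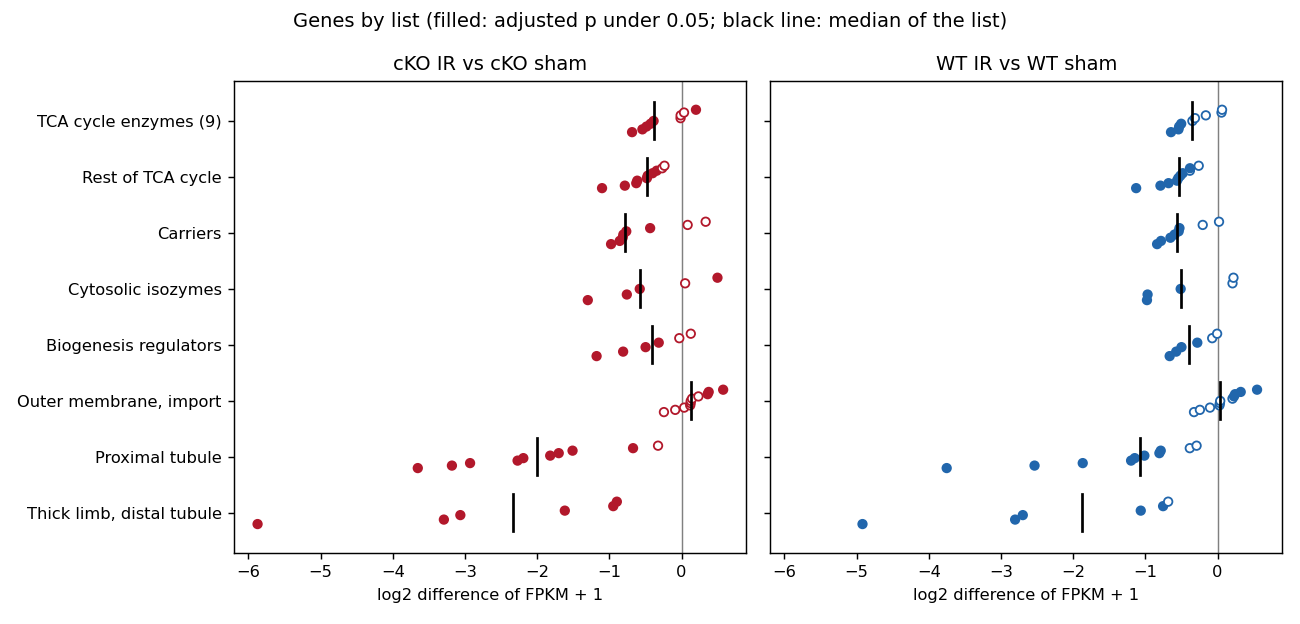
Log2 differences of FPKM + 1 between IR and sham for each gene of a list (points; filled where the limma adjusted p is under 0.05), with the list median as a black line, in cKO on the left and WT on the right. The median of the 9 enzymes is −0.39 in cKO and −0.35 in WT, that of the outer membrane list is 0.13 and 0.04, and that of proximal tubule markers is −2.01 and −1.08.

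The genes outside the 9 whose profile over the 12 libraries lay nearest to the mean profile of the 9 were Rpusd3, Uqcrc1, Sdhd, Dlst and Dalrd3, out of 12859. Likeness was the root mean square distance between centred log2(FPKM + 1) values, which was 0.0445 for Rpusd3 and 0.0514 for Dalrd3. Uqcrc1 is a core subunit of respiratory complex III, and Sdhd and Dlst belong to the cycle itself. Among the 9, Suclg1 lay closest to their mean (0.0799) and Cs farthest (0.221).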

How the data were processed

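Whole kidney RNA of 12 libraries was compared in 4 groups of 3, taken from the sample titles. The authors deposited 1 table of FPKM and gene lengths. Per the submitters' processing notes, reads were aligned with HISAT2 2.2.1 and builds mm8 and mm9 were named. No source used here gives the counting program, the annotation or strand use. Only 2.76% of 52036 nuclear identifiers that GENCODE mouse release 21 also holds kept their start and end in it, so no coordinates of the table are printed. The deposited FPKM times gene length gave whole reads in every library (largest distance from a whole number 5.63e-08), 13187531 to 15962303 per library.

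The 9 genes, the related lists and the markers were chosen with earlier results of these data known. The genes named were the 9 members in every comparison, genes of 7 related lists, and the 5 genes outside the members with the nearest profile. Genes averaging 1 FPKM or more (12868) were tested as log2(FPKM + 1), a scale that understates changes of low genes, in limma 3.58.1 (R 4.3.3) with 1 mean per group and a variance trend, with Benjamini-Hochberg adjustment over all tested genes. Subunit ratios were tested by exact permutation. The fits were tested on simulated data. Alternatives were the pseudocount, the filter, the scaling, limma-voom on recovered reads, the variance model, the libraries in the fit, the replicate block, and leaving out each library. Some genes of the related lists and 1 overlapping gene are not reported by name here.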

Additional observations from a re-analysis of the deposited data

How the results depend on the processing

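Of 720 values of single genes under alternative settings, 694 kept their side of the threshold, 18 lost the call and 8 gained it. Of all 720, 40 changed sign. None of these passed the limma test, either as reported or in the setting (lowest adjusted p in the setting 0.549), and their sizes there were at most 0.11. Leaving out 1 library at a time, the number of the 9 genes called ran from 4 to 7 in WT IR against WT sham and from 3 to 5 in cKO IR against cKO sham, and stayed at 0 in both genotype comparisons and in the interaction. For ratios between cKO and WT, leaving out 1 library gave −0.24 to −0.15 for Idh3b to Idh3a (exact permutation, adjusted p 0.03 to 0.096) and −0.14 to −0.059 for Idh3g to Idh3a (adjusted p 0.04 to 0.423). For Sucla2 to Suclg2 in IR against sham it gave −0.21 to −0.14 (adjusted p 0.02 to 0.144). Of 18 same-numbered pairs of libraries 4 had a correlation of deviations over 0.1 (range −0.186 to 0.401), so the numbers were not taken to pair the libraries. With the replicate block 4 of the 9 genes were called in WT and 5 in cKO, where Cs was lost (adjusted p = 0.0525), and 0 in the other comparisons. Plain library totals called 4160 genes higher and 1845 lower in WT, against 2910 and 2514 as reported, limma-voom called 4124 and 1865, and both called Cs and Idh3a higher there. Counts over all genes moved in cKO sham against WT sham, from 142 to 251 with only the compared groups and to 55 to 157 without 1 library. In the interaction 113 became 73 with the block and 41 to 150 without 1 library. In cKO IR against WT IR, 0 became at most 12. Among related lists, the cKO count of further cycle genes was 4 with no filter on low values, and with only the compared groups in the fit the WT count was 2 for outer membrane and 2 for biogenesis genes. Counts of related lists under each setting were chosen after seeing the data. The cause of these changes was not tested.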
